A study of Mus musculus with 6 samples.

Results

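The elastic fibre genes examined here were 10 genes of the deposited table, found by their gene symbol among 55487 genes: Eln, Fbn1, Fbln2, Fbln5, Efemp2, Lox, Loxl1, Emilin1, Mfap4 and Mfap5. All 10 were found, and all 10 passed the filter of a mean of at least 1 normalized count. They were measured by RNA sequencing of the mouse aortic media and intima, with the adventitia stripped off. The 3 libraries labelled ChemR23-deficient came from Apoe-/- recipients that also carried ChemR23e/e, an allele of the chemerin receptor gene Cmklr1. The 3 libraries labelled control came from recipients that were Apoe-/- alone. All recipients were transplanted at 8 to 10 weeks of age with Apoe-/- marrow in which the receptor gene was intact, rested for 4 weeks and ate a Western diet for 6 weeks (21% fat, 0.15 to 0.2% cholesterol). Blood-derived cells in both groups therefore carried the receptor. The labels do not give the animals' sex or say whether a library pools animals, so every p below rests on the variation among these 6 libraries, which may be technical. Replicates are numbered in order of deposition and pair nothing.

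Elastic fibres let the aortic wall stretch and recoil. Smooth muscle cells secrete tropoelastin, the product of Eln, onto a scaffold of microfibrils built from fibrillin. Fibulins and microfibril-associated proteins bring the parts together, and copper-dependent lysyl oxidases then cross-link elastin into an insoluble polymer. Elastin turns over very slowly, so most of it is laid down early in life.

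The libraries held 30887855 to 38600604 reads assigned to genes. The receptor gene Cmklr1 itself did not show a loss: it had 2388, 1788 and 1551 normalized counts in deficient replicates 1 to 3, against 1396, 1028 and 1720 in the controls (log2 difference 0.47, SE 0.21, limma adjusted p = 0.427). What the allele removes is not stated in the labels, so a count over the whole gene checks little, and each group below is named by its label. Ddx3y, a Y-linked gene, was at 8.54 and 0 normalized counts in deficient replicates 1 and 2 and at 6374 in deficient replicate 3, against 6058 to 6796 in the controls. Xist, the RNA of the inactive X, had 16083, 13146 and 373 normalized counts in deficient replicates 1, 2 and 3, against 8.87 to 22.0 in the controls. Deficient replicates 1 and 2 thus lacked the Y-linked signal of the other 4 libraries, and deficient replicate 3 had it together with more Xist than any control. Sex pattern and group are therefore partly confounded in every comparison of all 6 libraries below, and their parts cannot be told apart there. The 9 contractile smooth muscle markers summed to 1388120 to 1864190 normalized counts in the deficient libraries and 1433450 to 1527670 in the controls, above the sum of each of 5 lists for other cell types in every library. Of the 10 adventitial fibroblast markers, which should have been reduced by stripping, 0 were at 0 in any library. They summed to 43421 to 57457 in the deficient libraries and 48452 to 67111 in the controls, of which Gsn made up 27628 to 32749 and 25620 to 36433. DESeq2 called 2 of the 10 lower, Dcn and Dpep1, 3 were lower without overlap and 3 were above 0 in log2 difference. Of all genes, DESeq2 called 1.76% lower, 8.24% were lower without overlap and 48.8% were above 0. Dcn had 5978, 9097 and 6238 normalized counts in the deficient libraries, against 11216, 13342 and 15812 in the controls. The 6 adipocyte markers summed to 1972, 23562 and 1715 in the deficient libraries, against 10692, 48360 and 10980 in the controls, with 0 of 6 above 0 in log2 difference, 5 lower at an unadjusted limma p under 0.05 and 0 called by limma, while DESeq2 called 1 lower (Lep). Of all genes, 12.2% had an unadjusted limma p under 0.05 in either direction. Lep and Ucp1 were at 0 in at least 1 library. The part of these cell types in the levels below was not tested.

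Of the 10 genes, 9 had a higher level in the libraries labelled deficient than in the controls by the mean log2 value, with a median log2 difference of 0.31. Over all 20669 genes tested, 48.8% were above 0. None of the 10 passed limma over all genes (0 of 10, where 0.135% of all genes passed and 0.0726% were higher), and edgeR called 0 of them too (0.00658% of all genes). At an unadjusted p under 0.05 there were 6, all higher, by limma, where 6.36% of all genes were, and the same 6 by edgeR, where 7.4% were. DESeq2, a count test run as an alternative on the recovered reads, called 5 of the 10 higher and 0 lower, against 2.47% of genes called higher and 4.22% called in either direction. These were Eln, Fbln5, Loxl1, Fbln2 and Emilin1. Another 5, Fbn1 in place of Eln, had groups that did not overlap, which held for 8.8% of all genes in this direction and 8.24% in the other. The genes were chosen with earlier results of these data known, so these counts describe the set and do not test it.

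**Figure D1:**
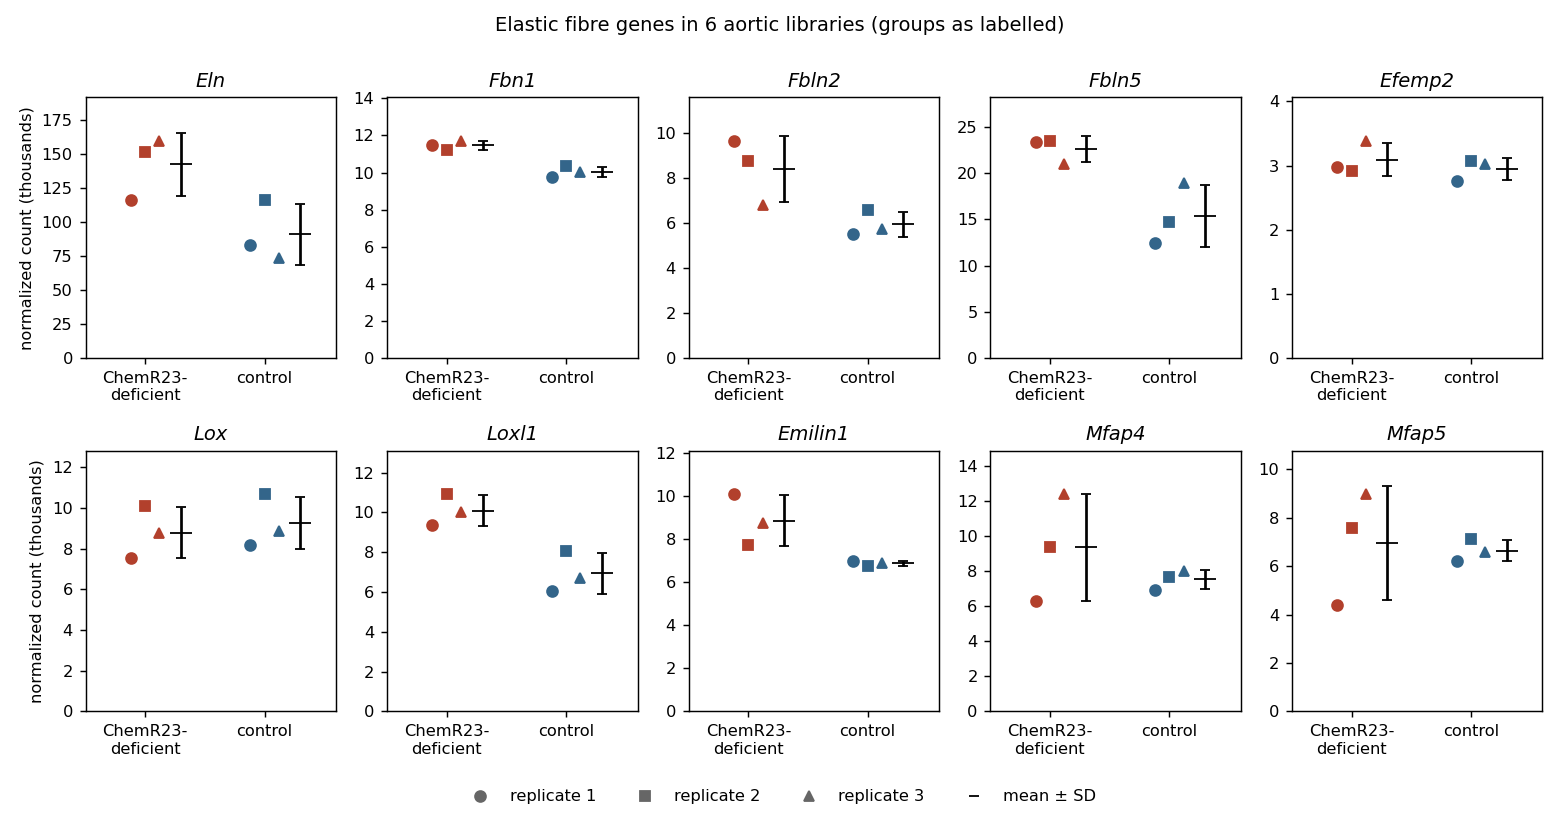
Normalized counts (vertical axis from 0) of the 10 genes in the 3 libraries labelled ChemR23-deficient (red, left) and the 3 labelled control (blue, right); markers give the replicate and black bars the mean ± SD. Fbn1, Fbln2, Fbln5, Loxl1 and Emilin1 were higher in every deficient library than in any control, while Eln overlapped by deficient replicate 1 and control replicate 2.

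Eln encodes tropoelastin, the elastic core of the fibre. It lies on chromosome 5 (134702593 to 134747323, minus strand, GRCm38). Eln had 115995, 151201 and 159483 normalized counts in deficient replicates 1, 2 and 3, against 82920, 116089 and 73490 in the controls. Deficient replicates 2 and 3 were above every control, and deficient replicate 1 lay just below control replicate 2, so the groups overlapped. The means were 142226 ± 23092 and 90833 ± 22375 (SD, n = 3 each), a log2 difference of 0.66 (SE 0.19, 95% interval 0.22 to 1.10, limma adjusted p = 0.226). DESeq2 gave 0.65 (SE 0.18, adjusted p = 0.0125). Eln was the gene with rank 20 by mean normalized count in the whole table (by count, not per length) and took between 0.222% and 0.463% of a library's reads. Its exons share 267 bases with Gm30003, an antisense gene, and the strand setting of the counting is not given.

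Per kilobase of exon, Eln stood far above the other 9. On the RPKM scale, reads per kilobase of exon scaled to library size, its level was 517 ± 75.4 in the deficient libraries and 334 ± 75.4 in the controls (SD, n = 3 each). Its lowest library, at 274, was above the highest library of the next gene, Mfap4, at 187. The order by mean level was then Mfap4 (130), Fbln5 (81.4), Loxl1 (76.4), Mfap5 (56.1), Lox (55.9), Emilin1 (47.2), Fbln2 (33.3), Fbn1 (26.3) and Efemp2 (23.6). Below Eln, the ranges over the 6 libraries of each pair of neighbours in this order overlapped. The length used merges the exons of all annotated transcripts of a gene, 1 for Loxl1 and 17 for Efemp2. The order between genes therefore depends on that annotation. Fbn1, the very long transcript of fibrillin, ranged only from 24.2 to 28.5.

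Both cross-linking enzymes of the set are lysyl oxidases, and only Loxl1 was higher without overlap between the groups. Loxl1 encodes a lysyl oxidase-like enzyme needed in mice to maintain elastic fibres in adult tissue (chromosome 9, 58287738 to 58313186, minus strand). It had 9360, 10905 and 10019 normalized counts in the deficient libraries, against 6043, 8043 and 6719 in the controls. Every deficient library was above every control. The log2 difference was 0.55 (SE 0.11, 95% interval 0.29 to 0.81, limma adjusted p = 0.116), with the lowest p of the 10 genes, and DESeq2 gave 0.54 (SE 0.13, adjusted p = 0.0012). Lox encodes lysyl oxidase itself, without which the mouse aorta ruptures around birth (chromosome 18, 52516067 to 52529867, minus strand). It had 7534, 10069 and 8754 normalized counts in the deficient libraries, against 8198, 10662 and 8880 in the controls. The groups overlapped throughout, with a log2 difference of -0.08 (SE 0.13, 95% interval -0.38 to 0.23, limma adjusted p = 0.873). That interval reaches a level 0.77 times or 1.17 times that of the controls, so a change within those bounds is not excluded by these libraries.

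A ratio within a library needs no scaling between libraries. That of Loxl1 to Lox was 1.24, 1.08 and 1.14 in the deficient libraries and 0.737, 0.754 and 0.757 in the controls. The groups did not overlap, and the spread among the controls was narrow (1.16 ± 0.0804 against 0.749 ± 0.0107, SD, n = 3 each). Eln over Lox was 15.4, 15.02 and 18.2 in the deficient libraries, against 10.1, 10.9 and 8.28 in the controls. The groups of this ratio did not overlap, although those of Eln alone did. Of the 9 ratios of another gene to Lox, 4 were higher without overlap, those of Eln, Fbln2, Fbln5 and Loxl1. Fbln2, Fbln5 and Loxl1 were also higher without overlap on their own. All 9 share Lox as denominator, and the share of all genes with such a ratio to Lox was not computed. The ratios were chosen after the values were seen and were not tested.

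**Figure D2:**
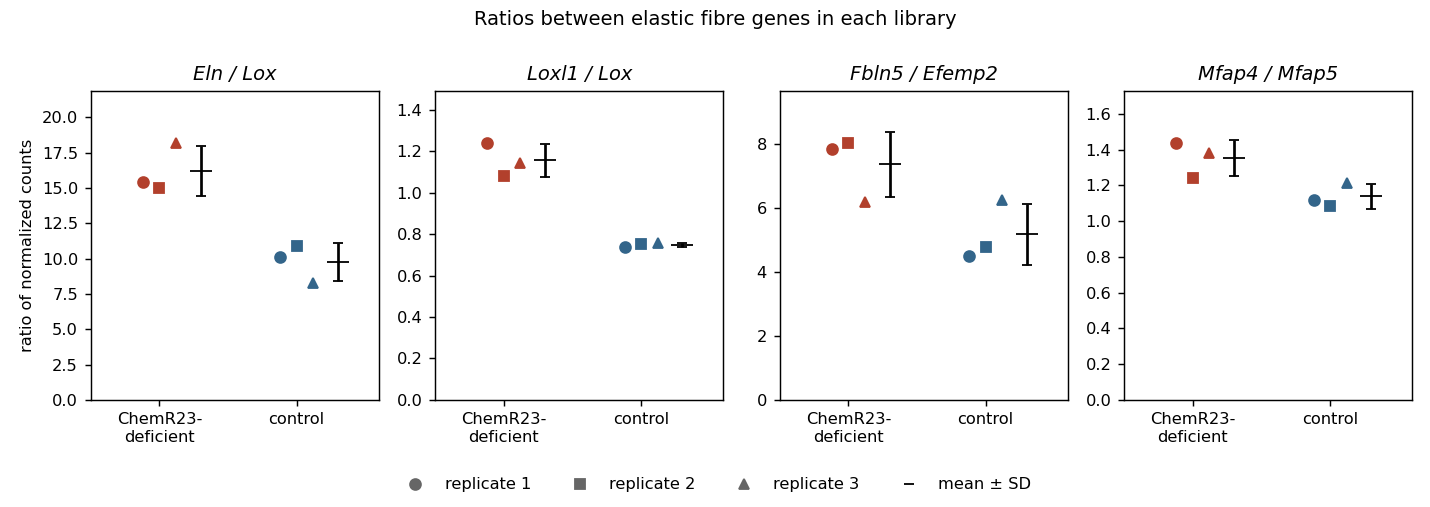
Ratios of normalized counts (vertical axes from 0) within each of the 3 libraries labelled ChemR23-deficient (red, left) and the 3 labelled control (blue, right), with mean ± SD in black. Loxl1 over Lox was 1.08 to 1.24 in the deficient libraries and 0.737 to 0.757 in the controls, and Fbln5 over Efemp2 overlapped at deficient replicate 3 and control replicate 3.

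The short fibulins bind elastin and the cross-linking enzymes. Fbln5 encodes fibulin-5, an integrin-binding fibulin needed for elastic fibre assembly in mice (chromosome 12, 101746565 to 101819055, minus strand). It had 23361, 23492 and 20981 normalized counts in the deficient libraries, against 12421, 14709 and 18934 in the controls. No deficient library reached down to a control, but control replicate 3 was close to deficient replicate 3. The log2 difference was 0.58 (SE 0.14, 95% interval 0.24 to 0.91, limma adjusted p = 0.178), and DESeq2 gave 0.56 (SE 0.15, adjusted p = 0.00874). Efemp2, which encodes fibulin-4, the fibulin that brings lysyl oxidase to elastin, lies on chromosome 19 (5473954 to 5482517, plus strand). It had 2974, 2917 and 3385 normalized counts in the deficient libraries, against 2757, 3078 and 3020 in the controls. The groups overlapped (log2 difference 0.07, SE 0.08, 95% interval -0.13 to 0.26, limma adjusted p = 0.805). Fbln5 over Efemp2 was 7.86, 8.05 and 6.20 in the deficient libraries and 4.51, 4.78 and 6.27 in the controls, which overlapped.

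Fbln2 encodes fibulin-2, a larger fibulin of the vessel wall that binds elastin and fibrillin (chromosome 6, 91212455 to 91272540, plus strand). It had 9632, 8759 and 6781 normalized counts in the deficient libraries, against 5501, 6553 and 5738 in the controls. All deficient libraries were above the controls, replicate 3 by little. The log2 difference was 0.49 (SE 0.13, 95% interval 0.18 to 0.80, limma adjusted p = 0.206), with 0.50 (SE 0.14, adjusted p = 0.0158) by DESeq2. The summed macrophage markers were also highest in deficient replicates 1 and 2: the 10 markers came to 29552, 42688 and 9214 normalized counts in the deficient libraries, against 6207, 11562 and 7872 in the controls. Of these markers 9 of 10 were above 0 in log2 difference (48.8% of all genes), and 0 were at 0 in any library. DESeq2 called 3 higher (Cd68, Lgals3 and Trem2), where 2.47% of all genes were. Lyz2 made up much of the sum, with 16075, 25364 and 4270 in the deficient libraries, against 2576, 4854 and 2713 in the controls. Not all markers followed it: Mrc1 was highest in control replicate 2, at 834, and Adgre1 and Csf1r were higher there than in deficient replicate 1. In bulk samples fewer cells of a type and less RNA per cell cannot be told apart, and the part of macrophages in the levels of these genes was not tested.

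The microfibril-associated genes had log2 differences from 0.01 (Mfap5) to 0.35 (Emilin1). Fbn1 encodes fibrillin-1, the main protein of microfibrils (chromosome 2, 125300594 to 125507993, minus strand). It had 11493, 11196 and 11711 normalized counts in the deficient libraries, against 9754, 10328 and 10030 in the controls. The groups did not overlap and both were tight, with means of 11466 ± 259 and 10037 ± 287 (SD, n = 3 each). The log2 difference was small, 0.19 (SE 0.06, 95% interval 0.05 to 0.33, limma adjusted p = 0.263), and DESeq2 did not call it (adjusted p = 0.11). Its exons share 2442 bases with Gm9913, a gene on the other strand.

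Emilin1 encodes a glycoprotein at the border between elastin and microfibrils that in mice also restrains TGF-beta processing (chromosome 5, 30913402 to 30921277, plus strand). It had 10072, 7713 and 8731 normalized counts in the deficient libraries, against 6975, 6753 and 6906 in the controls. The controls lay within a narrow band and every deficient library was above it. The log2 difference was 0.35 (SE 0.10, 95% interval 0.13 to 0.58, limma adjusted p = 0.214), and DESeq2 gave 0.36 (SE 0.11, adjusted p = 0.0361).

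Mfap4 and Mfap5 encode microfibril-associated proteins, Mfap4 a fibrinogen-domain protein that binds tropoelastin and Mfap5 a small glycoprotein that binds fibrillin. Both varied widely within the deficient group and little within the controls. Mfap4 (chromosome 11, 61485431 to 61488900, plus strand) had 6297, 9399 and 12397 normalized counts in the deficient libraries, against 6958, 7690 and 8020 in the controls. Mfap5 (chromosome 6, 122505845 to 122529290, plus strand) had 4377, 7561 and 8966, against 6235, 7105 and 6603. For both genes deficient replicate 1 was the lowest of the 6 libraries and deficient replicate 3 the highest. The log2 differences were 0.26 (SE 0.21, 95% interval -0.24 to 0.75, limma adjusted p = 0.692) for Mfap4 and 0.01 (SE 0.23, 95% interval -0.53 to 0.55, limma adjusted p = 0.995) for Mfap5. Without deficient replicate 1 they were 0.52 and 0.31, and without deficient replicate 3 they were 0.03 and -0.21. Within a library, Mfap4 over Mfap5 was 1.44, 1.24 and 1.38 in the deficient libraries and 1.12, 1.08 and 1.21 in the controls. That ratio did not overlap between the groups.

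**Figure D3:**
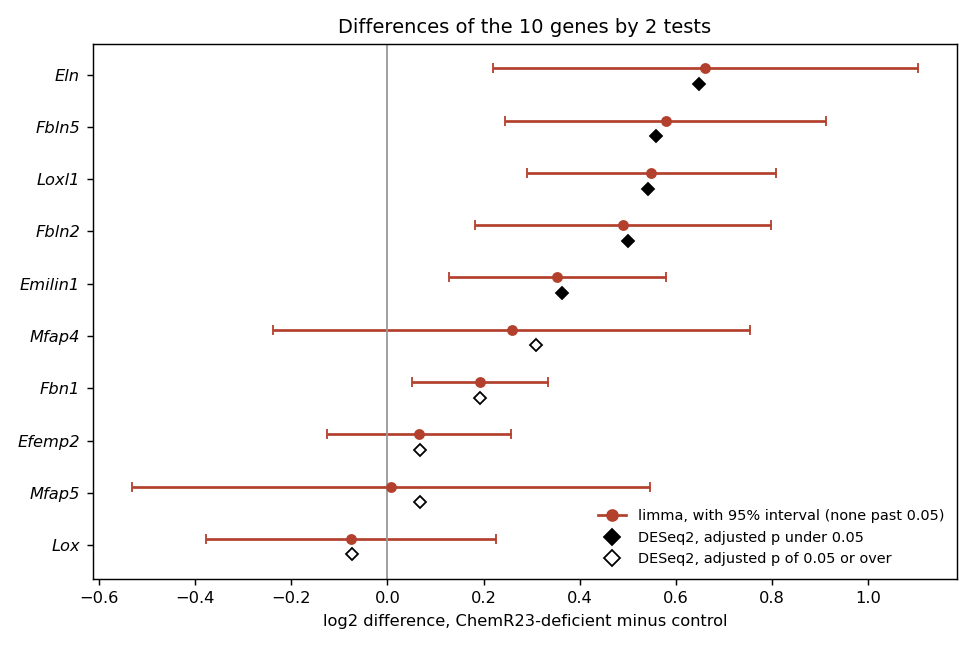
Log2 difference, ChemR23-deficient minus control (horizontal axis), of the 10 genes by limma on log2(normalized count + 1) with its 95% interval (red) and by DESeq2 on recovered reads (diamonds, filled where the adjusted p was under 0.05). The estimates of both tests lie close together, while DESeq2 called 5 genes and limma 0.

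The 10 genes did not share 1 profile over the libraries. Set against the control mean on the log2 scale, the median of the 10 was 0.29, 0.25 and 0.39 in deficient replicates 1, 2 and 3, against -0.10, 0.08 and -0.004 in the controls, where the median of all genes tested was within 0.01 of 0 in each library. Deficient replicate 1 was the most mixed: Fbln2 was at 0.70 and Fbln5 at 0.63, but Mfap5 at -0.60, Lox at -0.29 and Mfap4 at -0.26. In deficient replicate 3 all but Lox (-0.07) were above 0, led by Eln at 0.84 and Mfap4 at 0.72. Of the other 9 genes, Loxl1 had the profile most like that of Eln. After centring each gene on its own mean, it deviated from Eln by at most 0.30 (log2) in any of the 6 libraries, and 0.249% of 11625 genes with a mean of at least 100 were closer. Emilin1 was next, at most 0.44 away (2.84% closer), while Mfap5 was up to 0.65 away (51.2% closer). The genes closest to Eln outside the set were Zfp703 (at most 0.12 away), Ide (0.14), Perm1 (0.17), B4galnt3 (0.18) and Fgl2 (0.19). This is a description over 6 libraries.

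Loxl1 was called by DESeq2 in all 6 fits with 1 library left out (log2 0.45 to 0.66, adjusted p from 2.42e-07 to 0.0355). Eln, Fbln2 and Fbln5 were called in 2 of 6 each and Emilin1 in 1 of 6. Mfap4 was called in 1 of 6, without deficient replicate 1. Every fit with 1 library left out kept deficient replicate 1, deficient replicate 2 or both, which lacked Y-linked signal. Sex pattern and group thus stayed at least partly confounded in all 6, also for Loxl1. In limma 1 gene was called in such a fit: Fbln2 without deficient replicate 3, at 0.64 (SE 0.10, adjusted p = 0.027). The deficient libraries left in that fit lacked Y-linked signal and the controls had it, so sex pattern and group cannot be told apart there. When the comparison was kept to the 4 libraries that had Y-linked signal, 1 of them deficient, the limma differences were 0.84 for Eln, 0.54 for Loxl1, 0.47 for Fbln5, 0.34 for Emilin1 and 0.20 for Fbln2 (adjusted p 0.787 to 0.866), and 0.72 for Mfap4, 0.43 for Mfap5 and 0.20 for Efemp2. The lone deficient library, the one with some Xist, is assumed there to vary like the controls. DESeq2 called Mfap4 in them, but its SD over the 3 deficient libraries was 3050 against 543 in the controls, so that assumption is not met and nothing is read from the call.

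**Figure D4:**
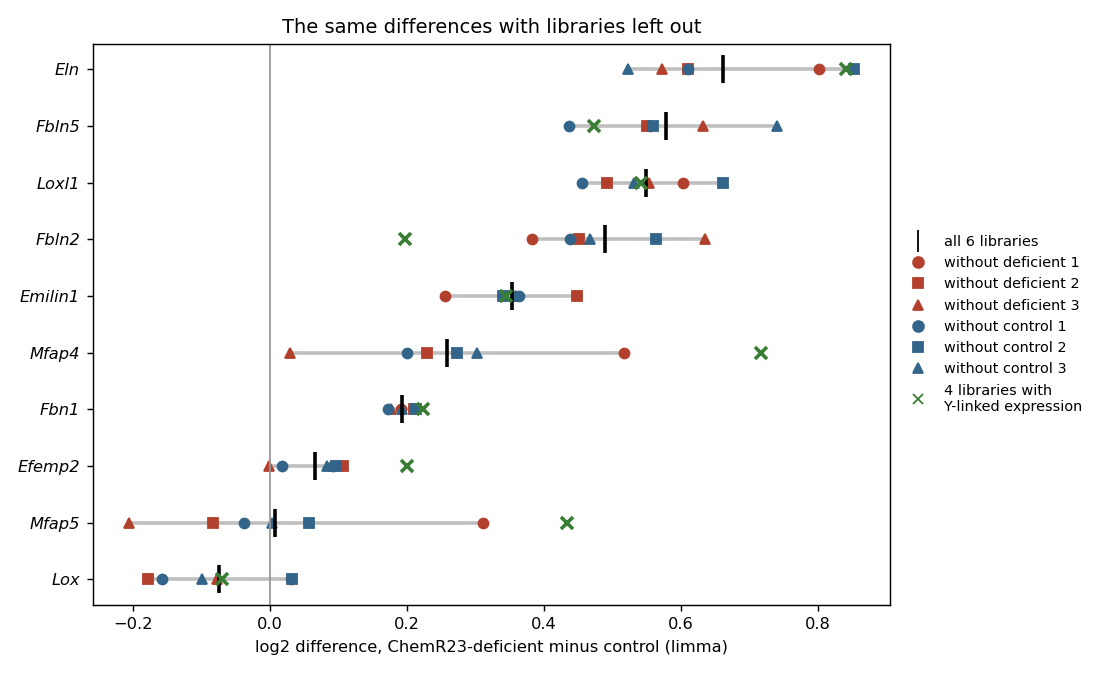
Log2 difference, ChemR23-deficient minus control (limma, horizontal axis), of each gene with all 6 libraries (black bar), with 1 library left out (red for a deficient library, blue for a control, shape for the replicate) and in the 4 libraries with Y-linked expression (green cross). Loxl1 stayed between 0.45 and 0.66 with 1 library left out, whereas Mfap5 ran from -0.21 to 0.31 on both sides of 0.

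Of the 10 genes, 5 have an adjusted p under 0.05 in the authors' deposited table (4.38% of the genes with an adjusted p), the same 5 that DESeq2 called here. The submitters' notes also name DESeq2, and the libraries are the same, so this match is no independent support. For Eln, the authors' deposited table lists -0.54 on the log2 scale (SE 0.15, adjusted p = 0.0126), where DESeq2 here gave 0.65 (SE 0.18). For Loxl1 it lists -0.49 (SE 0.11, adjusted p = 0.00123), where DESeq2 here gave 0.54 (SE 0.13). The deposited sizes and errors are smaller for both genes, and why was not examined. The deposited sign also runs the other way: for all 691 genes called in the authors' deposited table, the sign is opposite to that of the libraries labelled deficient minus those labelled control. The authors' deposited table names its groups treated and control. Its group means under those names were not used, and which samples the names were meant for was not settled here. Were the labels themselves exchanged, every direction in the text would turn.

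Of the 10 genes, 5 had an entry in the part of the RefSeq promoter table (GRCm38.p6) that was searched: Fbn1, Fbln2, Fbln5, Efemp2 and Emilin1. No entry was found there for Eln, Loxl1, Mfap4 and Mfap5. Lox was left out of the search, so whether it has an entry was not examined. The 250 bases before the start are shown for the 3 genes with an entry that DESeq2 called higher. They run 5′ to 3′ on the gene's strand, with GC boxes (GGGCGG on either strand) in capitals. Fbln5 has a pair of annotated starts, called downstream and upstream here by their order along the gene. The regions are chr6:91212514-91212763 (plus strand) for Fbln2, chr12:101818485-101818734 and chr12:101819120-101819369 (both minus strand) for Fbln5, and chr5:30913536-30913785 (plus strand) for Emilin1.
Fbln2: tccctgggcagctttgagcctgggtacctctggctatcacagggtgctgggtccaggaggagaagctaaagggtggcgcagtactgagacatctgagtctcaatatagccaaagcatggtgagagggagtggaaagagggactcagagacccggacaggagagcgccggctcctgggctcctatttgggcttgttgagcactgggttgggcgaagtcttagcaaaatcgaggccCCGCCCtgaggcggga
Fbln5 downstream: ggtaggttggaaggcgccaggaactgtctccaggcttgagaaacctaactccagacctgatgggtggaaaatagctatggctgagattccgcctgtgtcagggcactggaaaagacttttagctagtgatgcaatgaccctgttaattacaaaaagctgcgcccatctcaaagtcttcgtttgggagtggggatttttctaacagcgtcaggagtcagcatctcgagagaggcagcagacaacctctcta
Fbln5 upstream: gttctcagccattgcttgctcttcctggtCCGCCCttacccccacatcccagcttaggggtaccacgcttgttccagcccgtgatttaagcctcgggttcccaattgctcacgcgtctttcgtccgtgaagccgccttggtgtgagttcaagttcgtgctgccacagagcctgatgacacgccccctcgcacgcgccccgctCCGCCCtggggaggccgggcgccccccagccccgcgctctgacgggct
Emilin1: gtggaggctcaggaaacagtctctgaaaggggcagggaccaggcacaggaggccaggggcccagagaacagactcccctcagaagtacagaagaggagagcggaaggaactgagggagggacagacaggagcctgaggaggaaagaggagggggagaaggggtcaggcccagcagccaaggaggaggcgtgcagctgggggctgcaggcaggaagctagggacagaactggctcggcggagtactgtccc
These promoters had no layout in common. Fbln2 held 1 GC box, the upstream Fbln5 start held 2 and the downstream one 0, and Emilin1 held 0, although it had 63.2% G and C. Of all 32851 promoters of the same length, 32.7% held a GC box. The SMAD-binding element (CAGAC, either strand), a short sequence bound by the transducers of TGF-beta, was found 2 times at Emilin1, 2 times at the downstream Fbln5 start and 0 times at Fbln2, where 42.2% of all promoters held it. No TATA box (TATAAA, in 12.4% of all), AP-1 site (TGANTCA, in 6.75%) or CArG box, the smooth muscle element (in 1.47%), was found in any of the 8 entries of the 5 genes, both strands searched. No printed promoter holds both GC boxes and SMAD-binding elements, so no matches overlap. A match is a description and says nothing of binding in these aortas.

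The other genes of the pathway were read from 5 lists of 55 genes, of which 51 were tested. None passed limma over all genes (0 of 51), and edgeR called 0. At an unadjusted limma p under 0.05 there were 18, 15 higher and 3 lower. Of all genes, 12.2% had such a p in either direction and 6.36% were higher. DESeq2 called 11 higher and 2 lower of 50, where 2.47% of all genes were called higher and 1.76% lower. The median log2 difference was 0.12.

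Among 19 microfibril and assembly partners, 18 were tested, with a median log2 difference of -0.06, and DESeq2 called 1 higher and 1 lower. Of all genes, DESeq2 called 2.47% higher and 1.76% lower. Ltbp3, which encodes a latent TGF-beta binding protein of the fibrillin family, had 13276, 13975 and 13874 normalized counts in the deficient libraries, against 10186, 11212 and 10956 in the controls (a difference of 0.35 on the log2 scale, SE 0.07; limma adjusted p = 0.101, DESeq2 adjusted p = 7.38e-04). Mmrn1, a multimerin stored in platelets that shares the EMI domain with emilins, was near its floor in the deficient libraries, at 0, 2.16 and 1.01, against 25.0, 178.6 and 53.1 in the controls (limma adjusted p = 0.0589; DESeq2 adjusted p = 6.93e-07). Erythroid markers differed the same way, summing to 1650 to 11075 in the deficient libraries and 92905 to 288940 in the controls, and none of the 5 was at 0 in any library. Within the controls Mmrn1 was highest in replicate 2, but the erythroid sum was highest in replicate 3. The adipocyte sum, whose groups overlapped, was highest in control replicate 2, at 48360. The part of blood or fat in the Mmrn1 values was not tested. The partners with the most counts overlapped between groups: Ltbp4, which helps fibulin-5 deposit elastin, differed by 0.19 (SE 0.13, limma adjusted p = 0.633) and Thsd4, a fibrillin-binding ADAMTS-like protein, by -0.10 (SE 0.11, limma adjusted p = 0.756).

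Of 10 other cross-linking and copper supply genes, limma and DESeq2 called 0, and 2 had an unadjusted limma p under 0.05 (12.2% of all genes). Bmp1, the proteinase that activates lysyl oxidases, had 2145, 2660 and 2537 normalized counts in the deficient libraries, against 1951, 2031 and 2051 in the controls (a difference of 0.28 on the log2 scale, SE 0.09; limma adjusted p = 0.277). Loxl2 differed by 0.29 (SE 0.11, limma adjusted p = 0.351) and Loxl3 by 0.03 (SE 0.09, limma adjusted p = 0.932), both lysyl oxidase relatives.

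The genes of elastin-degrading proteases were higher in the libraries labelled deficient by DESeq2, 5 of 9 tested, with a median log2 difference of 0.66. Limma called 0 of the 9 over all genes and 5 had an unadjusted p under 0.05. Of all genes, DESeq2 called 2.47% higher and 12.2% had an unadjusted limma p under 0.05. Mmp12, macrophage elastase, had 3795, 3548 and 1296 normalized counts in the deficient libraries, against 620, 393 and 772 in the controls (a difference of 2.18 on the log2 scale, SE 0.42; limma adjusted p = 0.101; DESeq2 adjusted p = 0.00134). Ctss, the elastinolytic cathepsin S, had 6217, 7191 and 2195, against 1027, 1161 and 1260 (log2 2.01, SE 0.39, limma adjusted p = 0.105; DESeq2 adjusted p = 9.23e-04). For both genes deficient replicates 1 and 2, the libraries with the highest macrophage marker sums, were highest. The lysosomal proteases with the most counts, Ctsb and Ctsl, differed by 0.73 (SE 0.20, limma adjusted p = 0.208) and 0.66 (SE 0.22, limma adjusted p = 0.288). DESeq2 called both (adjusted p = 0.00272 and 0.015). The remaining gene of the 5, Ctsk, named after its values were seen, differed by 0.93 (SE 0.20, limma adjusted p = 0.12, DESeq2 adjusted p = 7.58e-04). Elane, neutrophil elastase, had 0 to 2.16 normalized counts over the 6 libraries and was not tested.

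Of 6 protease inhibitor genes, 5 were tested, and DESeq2 called 2 higher and 1 lower, while limma called 0. All 3 belong to the tissue inhibitors of metalloproteinases. Of all genes, DESeq2 called 2.47% higher and 1.76% lower. Timp1 had 968, 977 and 644 normalized counts in the deficient libraries, against 429, 596 and 460 in the controls (a difference of 0.79 on the log2 scale, SE 0.19; limma adjusted p = 0.165; DESeq2 adjusted p = 0.0029). Timp4 had 601, 415 and 560, against 1623, 895 and 1613 (log2 -1.35, SE 0.24, limma adjusted p = 0.0898; DESeq2 adjusted p = 5.95e-07). Its groups did not overlap, and in this gene the deficient libraries were the lower ones. Timp3, the matrix-bound inhibitor, was at 64078, 59702 and 64778, against 63379, 59546 and 64689, a log2 difference of 0.01 (SE 0.08, 95% interval -0.18 to 0.19). Cst3, which encodes the cathepsin inhibitor cystatin C, differed by 0.12 (SE 0.11, limma adjusted p = 0.73). Timp2, named after its values were seen, differed by 0.27 (SE 0.07, limma adjusted p = 0.215; DESeq2 adjusted p = 0.035).

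**Figure D5:**
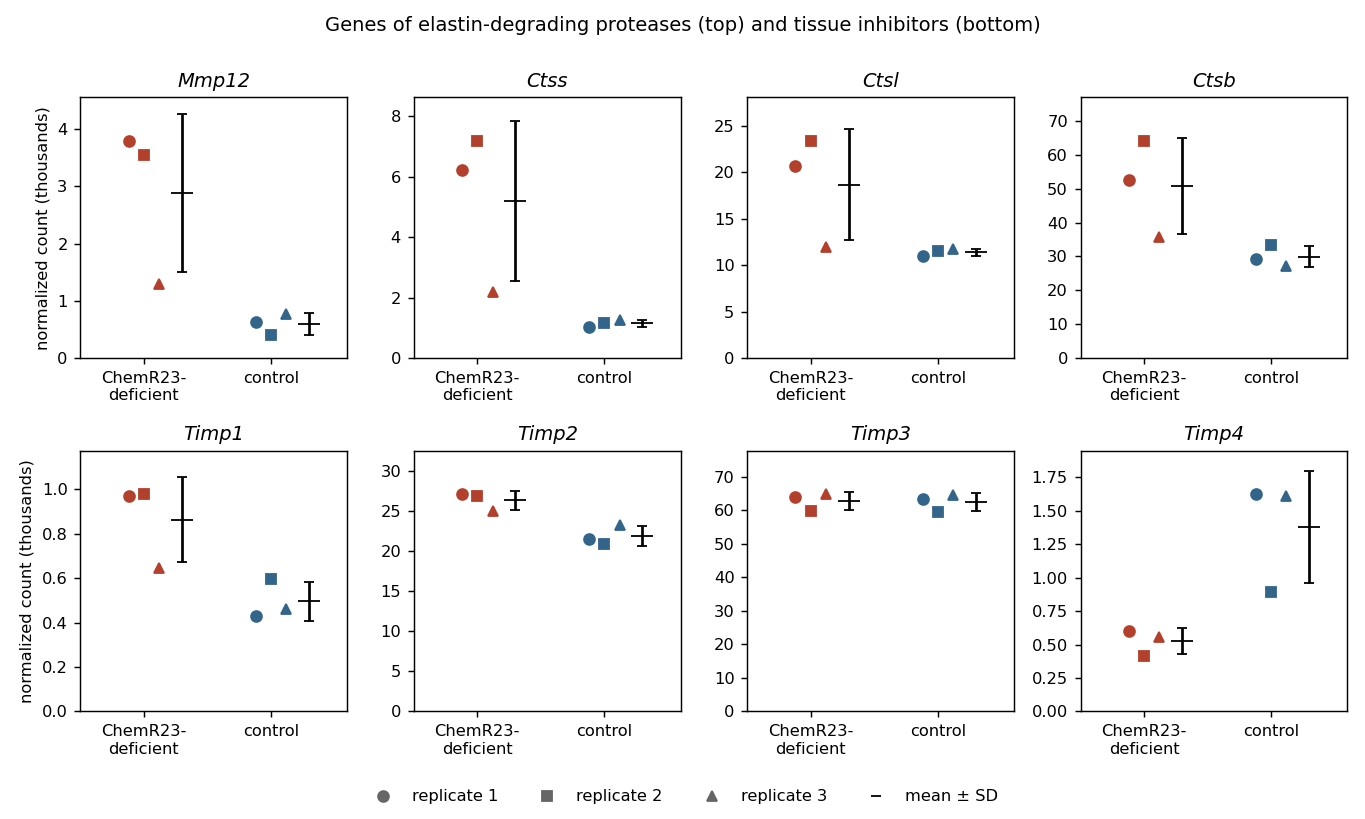
Normalized counts (vertical axis from 0) of 4 elastin-degrading proteases (top) and the 4 tissue inhibitors of metalloproteinases (bottom) in the 3 libraries labelled ChemR23-deficient (red, left) and the 3 labelled control (blue, right), with mean ± SD in black. Mmp12 was at 1296 to 3795 in the deficient libraries and 393 to 772 in the controls, Timp4 at 415 to 601 and 895 to 1623, and Timp3 overlapped.

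Of 9 receptor genes, DESeq2 called 3 higher and limma 0, with 4 at an unadjusted limma p under 0.05. The shares of all genes were 2.47% called higher by DESeq2 and 12.2% at that unadjusted p. Itgav, the alpha-v integrin chain that binds fibrillin and fibulin-5, had 7753, 7173 and 7616 normalized counts in the deficient libraries, against 5950, 6580 and 6230 in the controls (a difference of 0.27 on the log2 scale, SE 0.07; limma adjusted p = 0.183; DESeq2 adjusted p = 0.0357). Glb1, whose splice variant is the elastin-binding protein, differed by 0.46 (SE 0.10, limma adjusted p = 0.118; DESeq2 adjusted p = 0.00488), though gene counts do not separate that variant from the lysosomal enzyme. The integrin genes with the most counts, Itga8 and Itgb1, differed by 0.19 (SE 0.11, limma adjusted p = 0.538) and -0.002 (SE 0.09, limma adjusted p = 0.997).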

How the data were processed

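The 6 aortic libraries were made with a TruSeq Stranded mRNA kit and sequenced paired-end at 50 bp, per the labels' protocols. The submitters' processing notes name GRCm38, R 4.2.0 with DESeq2 1.36.0, featureCounts 2.0.1, HISAT2 2.2.1 and bcl2fastq 2.20, and neither annotation nor strand setting. The deposited values per library are a signal, read counts per gene that the authors divided by 1 size factor each, with the authors' log2 fold change, its error and test score, and their p-values. Dividing by the step of each library gave whole reads (within 0.001) for 100% of the values. In deficient replicate 3 and control replicate 3 that step was 1.01 and 1.00, close to rounding. DESeq2 calls 707 genes on the recovered reads.

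Since the values are normalized, the main test was limma 3.58.1 (trend) on log2(normalized count + 1) for genes with a mean of at least 1, a scale that understates the change of low genes, two-sided, Benjamini-Hochberg adjusted over 20669 genes, called under 0.05. Errors are SDs over libraries or moderated SEs. edgeR 4.0.16, DESeq2 1.42.0, other scalings, filters, pseudocounts and left-out libraries were alternatives, in R 4.3.3 and Python 3.11.15. Limma was tested on simulated data, but the outcome is not given here and no statement above rests on it. Positions and exon lengths come from GENCODE M21. The named genes are all 10 members, from each pathway list the 2 most abundant and the 2 with the lowest p, and the 5 genes nearest to Eln. Timp2 and Ctsk were added after their values were seen. The 10 genes and the lists were chosen with earlier results of these data known.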

Additional observations from a re-analysis of the deposited data

How the results depend on the processing

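Of 170 values of the 10 genes under 17 alternatives, 156 kept their direction and side of the threshold, 6 passed it and 8 changed sign. The sign changes were in genes near 0: Lox at 0.031 without deficient replicate 1 and 0.032 without control replicate 2 (range with 1 library left out -0.18 to 0.032), Efemp2 at -0.0015 without deficient replicate 3 (left-out range -0.0015 to 0.11, and 0.20 in the libraries with Y-linked expression), Mfap5 at -0.084, -0.21 and -0.038 without deficient replicate 2, deficient replicate 3 and control replicate 1 (left-out range -0.21 to 0.31, and 0.43 in the libraries with Y-linked expression), and, scaled to contractile markers, Efemp2 at -0.027 and Mfap5 at -0.086. Under that scaling the median of all genes was -0.097 (log2), against -0.0063 without it, and Eln was at 0.57, Fbln5 at 0.49, Loxl1 at 0.46, Fbln2 at 0.40, Emilin1 at 0.26, Mfap4 at 0.17 and Fbn1 at 0.099, with 3 of the 10 at an unadjusted p under 0.05 in place of 6. Members called were 5 by DESeq2 and 0 to 1 by limma with 1 library left out; those called by DESeq2 were 1 to 3 with 1 left out (360 to 1029 over all genes) and 1 in the 4 libraries with Y-linked expression (160 over all genes), settings chosen after seeing the data. Against 28 genes called by limma over all genes, there were 91 without a filter, 1 with a mean of at least 10 (Mt1), 1 by edgeR (Mt1), 707 by DESeq2, 85 scaled to contractile markers, 6 without trend, 0 with Y-linked libraries alone (1300 at an unadjusted limma p under 0.05) and 0 to 427 with 1 left out, the 427 without deficient replicate 3. Pathway genes called were 1 without a filter (Mmrn1), 13 by DESeq2, 2 scaled to contractile markers (Mmrn1 and Timp4) and 0 to 7 with 1 left out, the 7 again without deficient replicate 3. The cause was not tested. No paired analysis was possible because the labels carry no replicate numbers. Each of the 10 genes had 2703 to 157751 reads per library.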
